A study of Mus musculus with 15 samples.

Results

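The genes described here encode molecular chaperones of the cytosol and of mitochondria. They were chosen by symbol alone: every gene of the array's probe table whose symbol begins with Hsp followed by a, b, d, e, h or a digit, with Dnaja, Dnajb or Dnajc and a digit, or with Cct and a digit of that chaperonin, except Hspa5, Hsp90b1 and Dnajb9, which belong to the endoplasmic reticulum. The rule found 74 of the 19057 genes with 1 symbol on the array. They comprise 13 genes of the HSP70 system, 1 HSP90 gene, 8 genes named as small heat shock proteins, the mitochondrial pair Hspd1 and Hspe1, 8 subunits of the chaperonin CCT, 39 J proteins and 3 further genes, Hspbp1, Hspbap1 and Cct8l1. The HSP90 gene is Hsp90aa1, and Hsp90ab1 is not among the 74. Tcp1, a further subunit of CCT, is outside the rule. The choice by name also takes in J proteins of the endoplasmic reticulum, such as Dnajc1, Dnajc3, Dnajc10 and Dnajb12, the reticulum's Hspa13, and genes such as Hspbp1 and Hspbap1 that act on chaperones or bind them without being chaperones.

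RNA was measured in 15 samples taken after 52 weeks of diet, with 1 array per sample. They were 5 tumors and 5 livers adjacent to tumors, both from the same 5 mice (4N, 4R, 5N, 5R and 6L) fed a Western diet high in fat, with cholesterol, and sugar water of fructose and glucose (WD SW), and 5 livers of other mice (1L, 1R, 2L, 2N and 3N) fed chow and normal water (CD NW). All were males of an inbred 129S1/SvImJ;C57Bl/6J strain that were 8 to 12 weeks old when the diets began. Because every WD SW liver came from a mouse with a tumor, the diet and the presence of a tumor cannot be told apart in the livers.

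Chaperones bind unfolded proteins and help them to fold. HSP70 proteins work in cycles that J proteins start and that exchange factors such as the HSP110 proteins complete, HSP90 takes over clients from HSP70, small heat shock proteins hold unfolded proteins, and the ring-shaped chaperonins CCT, in the cytosol, and HSP60 with HSP10, in mitochondria, enclose proteins while they fold. Many of these genes are switched on together by heat shock factors, which bind heat shock elements, inverted repeats of a short GAA unit, when unfolded proteins accumulate. In the liver the inducible members are known to respond to heat, oxidants and surgical stress.

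Levels are given as log2 signal after background correction and quantile normalization over the 15 arrays, where a difference of 1 is a 2-fold change of the corrected signal. A probe was called above background on an array where its signal exceeded that of nearly all probes for olfactory-type receptors, which served as negative controls (detection p under 0.01). Tumor arrays had 13432 to 15829 probes above background, those of WD SW livers 13189 to 15430 and those of CD NW livers 12293 to 14317. Of the 74 genes, 40 were above background on all 15 arrays, 15 on some and 19 on none. Those on none include Hspa12a, Hspa13, Hspa14 and Hspa1l of the HSP70 system, 9 J protein genes, and Hspb2, Hspb3, Hspb7, Hspb9 and Hspb11, named as small heat shock proteins. A gene entered a comparison where a probe was above background on at least 5 of its 10 arrays, which left 49 members in tumor against WD SW liver, 46 in WD SW liver against CD NW liver and 50 in tumor against CD NW liver, with 24 in no comparison. A gene dim in one group could pass this filter through the other, as Hspa1b did mainly through the tumors. The WD SW livers serve in 2 of the comparisons, as do the tumors and the CD NW livers, so the 3 comparisons are not independent. Of 10 hepatocyte markers, all were above background in every liver, and in tumors all but Tat, above background in 4 of 5, were as well.

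The promoters show which of the members searched carry a heat shock element in the sequence around their start. The ones printed are the 4 that hold the longer form of it, and Hspa1b, the member with the largest difference among those that passed. A promoter window of 300 bases, 250 before and 50 after the annotated start (RefSeq, GRCm38.p6), was found for 61 of the 74 genes. It was searched on both strands for 3 alternating units, GAANNTTCNNGAA or TTCNNGAANNTTC, and for 2 units, GAANNTTC or TTCNNGAA, which the longer form contains. The members without a window, among them Hspa8, Hsp90aa1, Cct4 and Hspa9, were not searched, so whether they carry an element is not known here. The 3 units were found in 4 of the 61 members (6.56%), Hsph1, Hspd1, Hspe1 and Dnajb6, and in 0.662% of the 27025 genes with a window. The 2 units were found in 19 members (31.1%) and in 17.0% of all genes. Below, 150 bases before the start are written 5′ to 3′ on the strand of the gene, with the matched units in capitals.
Hspd1, chr1:55087933-55088082, minus strand: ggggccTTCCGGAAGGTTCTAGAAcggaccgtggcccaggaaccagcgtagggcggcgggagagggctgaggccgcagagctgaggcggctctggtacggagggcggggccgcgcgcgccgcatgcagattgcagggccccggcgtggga
Hspe1, chr1:55087998-55088147, plus strand: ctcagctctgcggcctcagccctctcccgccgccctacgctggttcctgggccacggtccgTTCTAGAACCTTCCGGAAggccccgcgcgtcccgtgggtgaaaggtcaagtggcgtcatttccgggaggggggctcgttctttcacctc
Hsph1, chr5:149636316-149636465, minus strand: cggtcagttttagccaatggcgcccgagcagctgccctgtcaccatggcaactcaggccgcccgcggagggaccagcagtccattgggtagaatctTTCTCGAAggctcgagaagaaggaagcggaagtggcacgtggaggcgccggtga
Hsph1, 30 bases after the start that hold its 3 units, chr5:149636278-149636307, minus strand: ctgcagaTTCTGGAAAGTTCtcctcagtag
Hspa1b, chr17:34959239-34959388, minus strand: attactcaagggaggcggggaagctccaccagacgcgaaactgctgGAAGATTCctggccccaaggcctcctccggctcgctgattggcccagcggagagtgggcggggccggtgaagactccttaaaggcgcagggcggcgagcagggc
Dnajb6, chr5:29735748-29735897, plus strand: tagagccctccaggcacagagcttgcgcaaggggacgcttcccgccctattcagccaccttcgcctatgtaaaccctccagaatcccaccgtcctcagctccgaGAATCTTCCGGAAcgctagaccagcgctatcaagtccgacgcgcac
By the Hspd1 start used here, Hspd1 and Hspe1 lie head to head, with starts 216 bases apart, so that the same run of units stands in both sequences, read from opposite strands. A second annotated start of Hspd1 lies past the start of Hspe1, and its window holds neither form. The Hspa1a window differed from that of Hspa1b in 4 of 300 bases, only 1 of them in the 150 bases before the start, and carries the same 2-unit match. Hsph1 has a second annotated start close by, from which the same run lies farther downstream. The windows of Dnajb1 hold neither form. A match is a description of these letters and does not show that a factor binds there.

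**Figure D1:**
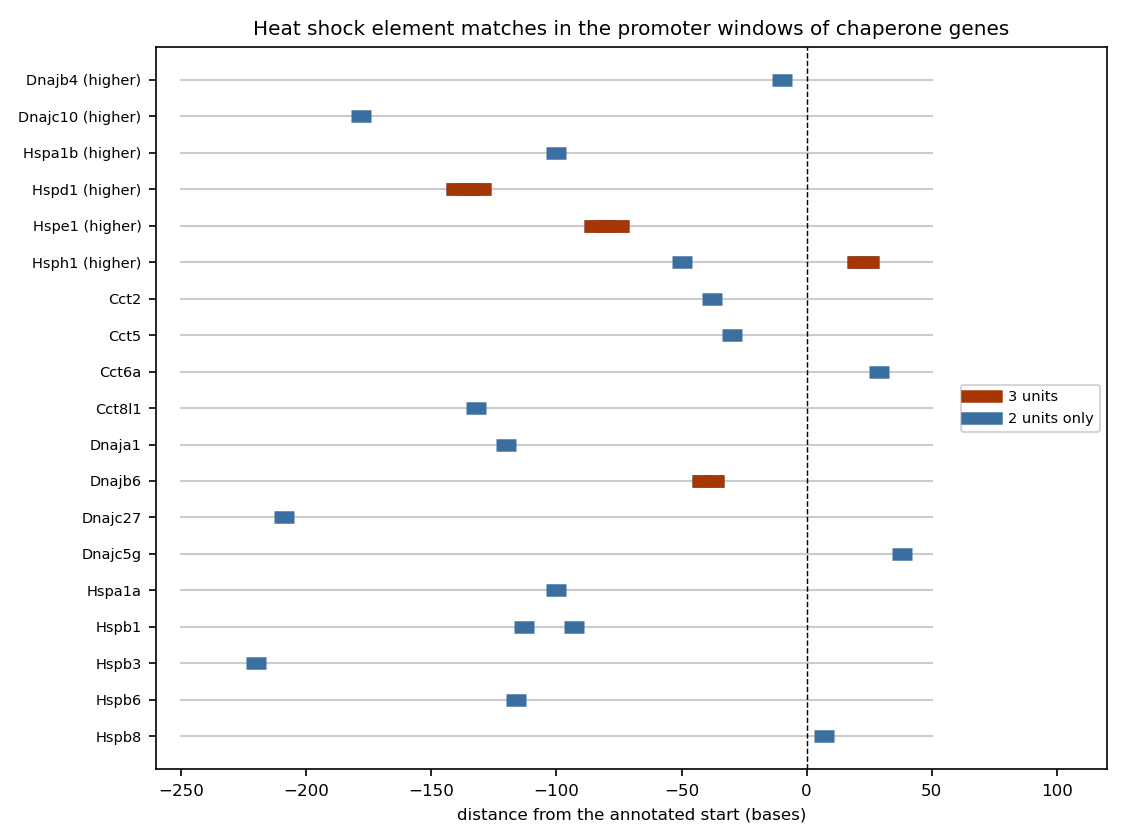
Positions of heat shock element matches in the 19 chaperone genes with any match, as distance in bases from the annotated start (dashed line), on 1 line per gene for its first window with a match. Red marks 3 units and blue 2 units only. Genes marked as higher passed the test in tumor against CD NW liver. Genes without a window, such as Hspa8, Hsp90aa1 and Cct4, were not searched and are not shown. The 3-unit matches stand in Hspd1, Hspe1, Hsph1 and Dnajb6, of which Dnajb6 is not marked, as its brightest probe did not pass.

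Nearly all chaperone genes that passed did so between tumors and CD NW livers, and mostly as higher in tumors. Those samples differed in tissue, diet and mice at once, so that tumor and diet cannot be told apart between them. In tumor against CD NW liver, 16 of the 50 members tested (32%) were higher, against 12.3% of 8352 genes, and 4 (8%) were lower, against 12.8%. The median log2 fold change was 0.22 over the members and -0.041 over all genes tested. In WD SW liver against CD NW liver, 4 of 46 members (8.7%) were higher, against 6.07% of 8429 genes, and 1 (2.17%) was lower, against 3.71%, with medians of 0.12 and -0.048. In tumor against WD SW liver, 1 of 49 (2.04%) was higher, against 1.96% of 8674 genes, and none was lower in limma's fit, against 2.04%, with medians of 0.15 and 0.0025. With the mouse as a block, which pairs tumor and adjacent liver, 2 of the 49 (4.08%) were higher, against 4.42% of all genes, and 1 was lower, with 906 genes called in place of 347. The shares in the last 2 comparisons were near those of all genes. Of the 16 members higher in tumors than in CD NW livers, Cct7 passed the filter through the tumors alone, so that its difference is built into the filter. Among members above background on all 10 arrays, 14 of 41 (34.1%) were higher, against 10.8% of 6665 genes. At an unadjusted p under 0.05 there were 25, 13 and 10 members in these 3 comparisons. All adjusted p-values are from limma, with Benjamini-Hochberg adjustment over all genes tested, and 0.05 was the threshold.

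These counts depend on single arrays and on the scaling. In tumor against CD NW liver 20 members passed with all arrays, but 13 when the liver of CD NW mouse 1L was left out, 13 when that of 2L was and 12 when the tumor of 4R was. In WD SW liver against CD NW liver, the 5 calls became 1 when the liver of 1R was left out, 2 when that of 1L, 2L or 4R was and 3 when that of 2N was. With arrays scaled to a common median in place of quantile normalization, the median of all genes moved by over 0.1, to 0.15, 15 members were higher and 0 lower, and the calls of all genes split into 1137 higher and 460 lower, against 1030 and 1069. In WD SW liver against CD NW liver that scaling gave 4 members higher and 0 lower, and 552 genes higher and 126 lower, against 512 and 313. The falls described below therefore rest on quantile normalization, and so do some of the rises. With median scaling the rises of Cct4, Cct8 and Dnaja3 in tumors and of Hspd1 in WD SW livers did not pass against CD NW livers. Dnajb1 passed in WD SW livers under that scaling (log2 fold change 0.50, adjusted p = 0.0345).

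Markers of other cells moved in the same comparisons. Over all genes, 12.3% were called higher and 12.8% lower in tumors against CD NW livers, and 6.07% and 3.71% in WD SW livers against CD NW livers. Of 11 macrophage and monocyte markers tested, 10 were higher in tumors than in CD NW livers and 10 were higher in WD SW livers than in CD NW livers. Their summed signal was 1965 to 7000 in tumors, 4469 to 26522 in WD SW livers and 1003 to 1959 in CD NW livers. Of the 10 hepatocyte markers, 5 were lower in tumors than in CD NW livers, with sums of 105383 to 123174 in tumors, 116283 to 154370 in WD SW livers and 144279 to 168445 in CD NW livers. Of 7 neutrophil markers, 5 were above background in no CD NW liver, and the sums were 107 to 2297 in tumors, 432 to 3211 in WD SW livers and 84.1 to 173 in CD NW livers. All 3 tested in tumors and 3 of 4 tested in WD SW livers were higher than in CD NW livers. Of 5 stellate cell and fibroblast markers tested, 2 were lower in tumors than in CD NW livers, with sums of 498 to 3384 in tumors, 1420.3 to 9759.5 in WD SW livers and 3004 to 6862 in CD NW livers. Sox9, the 1 cholangiocyte marker tested, was lower in tumors than in CD NW livers (log2 fold change -2.76, adjusted p = 0.00211). Endothelial and erythroid markers gave 1 higher and 1 lower each, of 6 and 3 tested. Cell division markers summed to 43.4 to 468 in tumors, 76.4 to 150 in WD SW livers and 27.9 to 56.3 in CD NW livers. Muscle markers were above background on no array. The part of other cells in the chaperone levels was not tested, and in whole tissue fewer cells of a type and less RNA per cell cannot be told apart.

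**Figure D2:**
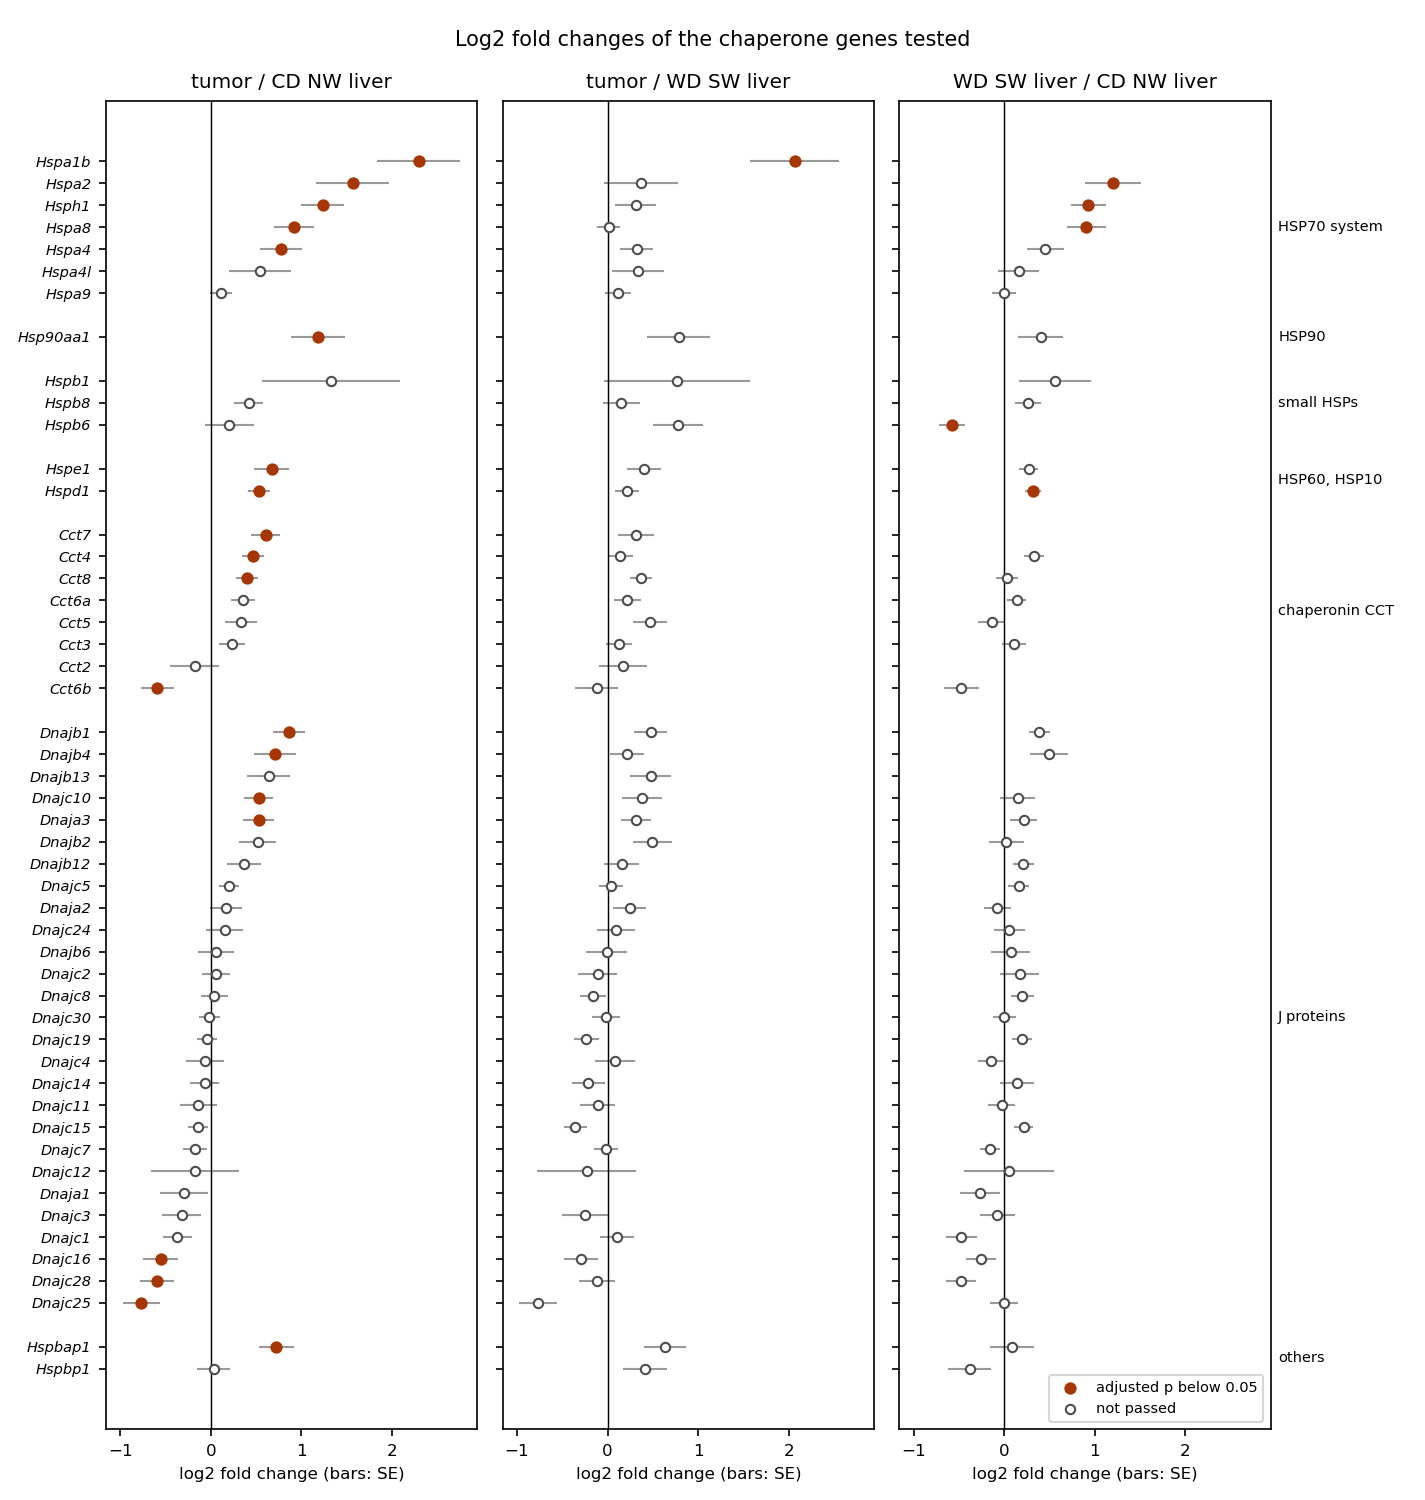
Log2 fold changes of the 50 chaperone genes tested in at least 1 comparison, by subgroup from top to bottom. Panels show tumor over CD NW liver, tumor over WD SW liver and WD SW liver over CD NW liver, points are estimates, bars are 1 standard error, and filled points have an adjusted p below 0.05. In the first panel 16 genes are filled on the right of 0 and 4 on the left. In the second only Hspa1b is filled.

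The HSP70 system held the 3 largest differences among the members that passed in tumor against CD NW liver. Of its 7 genes tested in tumor against CD NW liver, 5 were higher (71.4%, against 12.3% of all genes) and 0 lower in limma's fit. The median log2 fold change was 0.91, and the same counts were found with median scaling and with no filter on dim probes. Hspa1b, a heat-inducible HSP70, had log2 levels of 7.27, 9.13, 6.63, 6.13 and 7.94 in the tumors of mice 4N, 4R, 5N, 5R and 6L. In the WD SW livers of the same mice it was at 4.95, 5.53, 5.12, 6.15 and 5.02, and in the CD NW livers of 1L, 1R, 2L, 2N and 3N at 4.83, 5.11, 5.32, 4.73 and 5.65. Every tumor lay above every CD NW liver, while the liver of 5R was level with its own tumor, so that tumors and adjacent livers overlapped. It differed by 2.29 on the log2 scale from CD NW liver (standard error 0.46, adjusted p = 0.00378) and 2.07 against WD SW liver (standard error 0.49, adjusted p = 0.0383, higher in the tumor in 4 of 5 mice). With the mouse as a block the adjusted p in the comparison with adjacent liver was 0.0250.

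Only 2 WD SW livers and 1 CD NW liver had Hspa1b above background, so its size of change follows the background correction. Over all settings the value ranged from 1.13 to 2.59 against WD SW liver and from 1.22 to 2.62 against CD NW liver. The call against WD SW liver ended in 11 of 20 settings, among them the authors' processed values and the fits without any 1 of the WD SW livers of 4N, 4R, 5N and 6L or of the tumors of 4N, 5N and 6L, at adjusted p up to 0.0854. The call against CD NW liver held in all settings. Hspa1a, the near-identical neighbor of Hspa1b on chromosome 17, was at 6.29, 8.04, 5.62, 4.36 and 6.87 in tumors, at 5.37, 5.11, 4.40, 5.03 and 4.72 in WD SW livers and at 4.32, 4.63, 4.60, 4.66 and 4.61 in CD NW livers. It was above background in 4 of 5 tumors, all but that of 5R, and in no liver, and so did not enter the tests. The tumor mean was at least 1.98-fold that of WD SW livers and at least 1.71-fold that of CD NW livers. Signal of the copies may be shared between their probes, so the values of Hspa1a and Hspa1b are not independent.

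Hsph1 and Hspa8 were higher in WD SW livers and in tumors than in CD NW livers, and differed little between tumors and adjacent livers. Hsph1, an HSP110 that exchanges the nucleotide of HSP70, was at 10.49, 10.79, 10.002, 9.82 and 10.88 in tumors. It was at 10.18, 10.43, 9.76, 9.81 and 10.24 in WD SW livers and at 8.75, 9.0002, 9.18, 9.12 and 9.75 in CD NW livers. Neither tumors nor WD SW livers overlapped CD NW livers, although the highest of these, from 3N, fell just short of the lowest WD SW liver. Its log2 fold changes were 1.24 for tumors (standard error 0.24, adjusted p = 0.00272) and 0.93 for WD SW livers (standard error 0.19, adjusted p = 0.0124) against CD NW livers, and 0.31 for tumors against WD SW livers (adjusted p = 0.499). Both calls held in all settings.

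Hspa8, the constitutive HSP70 of the cytosol, was at 13.18, 13.41, 12.93, 12.95 and 13.22 in tumors, at 13.12, 13.15, 13.15, 12.94 and 13.28 in WD SW livers and at 11.55, 11.76, 12.47, 12.56 and 12.77 in CD NW livers. The 10 samples of WD SW mice lay within a narrow band above all 5 CD NW livers, of which those of 1L and 1R were the lowest. The log2 fold change against CD NW liver was 0.91 in tumors (standard error 0.22, adjusted p = 0.0110) and 0.90 in WD SW livers (standard error 0.22, adjusted p = 0.0239), and that of tumor against WD SW liver was 0.011 (standard error 0.12). The call in WD SW livers ended without the CD NW liver of 1R or the WD SW liver of 5N (adjusted p up to 0.0604). All 3 probes of Hspa8 passed in both comparisons with CD NW liver when each was tested on its own.

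Hspa2, an HSP70 best known from the testis, averaged 9.12 ± 0.90 in tumors, 8.75 ± 0.56 in WD SW livers and 7.55 ± 0.57 in CD NW livers (SD, n = 5 each). The tumor of 4N, at 10.67, was the highest sample, and the CD NW liver of 3N, at 8.51, lay among the samples of the WD SW mice. Its log2 fold change was 1.57 in tumors (adjusted p = 0.0144) and 1.20 in WD SW livers (adjusted p = 0.0336) against CD NW livers. Its second probe passed in tumors (1.27, adjusted p = 0.0119) and not in WD SW livers (0.85, adjusted p = 0.119). The call in WD SW livers ended without any 1 of the CD NW livers of 1L, 1R, 2L and 2N or the WD SW livers of 4N and 4R (adjusted p up to 0.0827). Hspa4, a second HSP110, passed in tumors against CD NW livers (log2 fold change 0.78, standard error 0.23, adjusted p = 0.0278). That call ended without the CD NW liver of 1L or 1R or the tumor of 4N or 4R (adjusted p up to 0.0639). Hspa9, the HSP70 of mitochondria, had a log2 fold change of 0.11 in tumors against CD NW livers and passed in no comparison, and neither did Hspa4l.

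**Figure D3:**
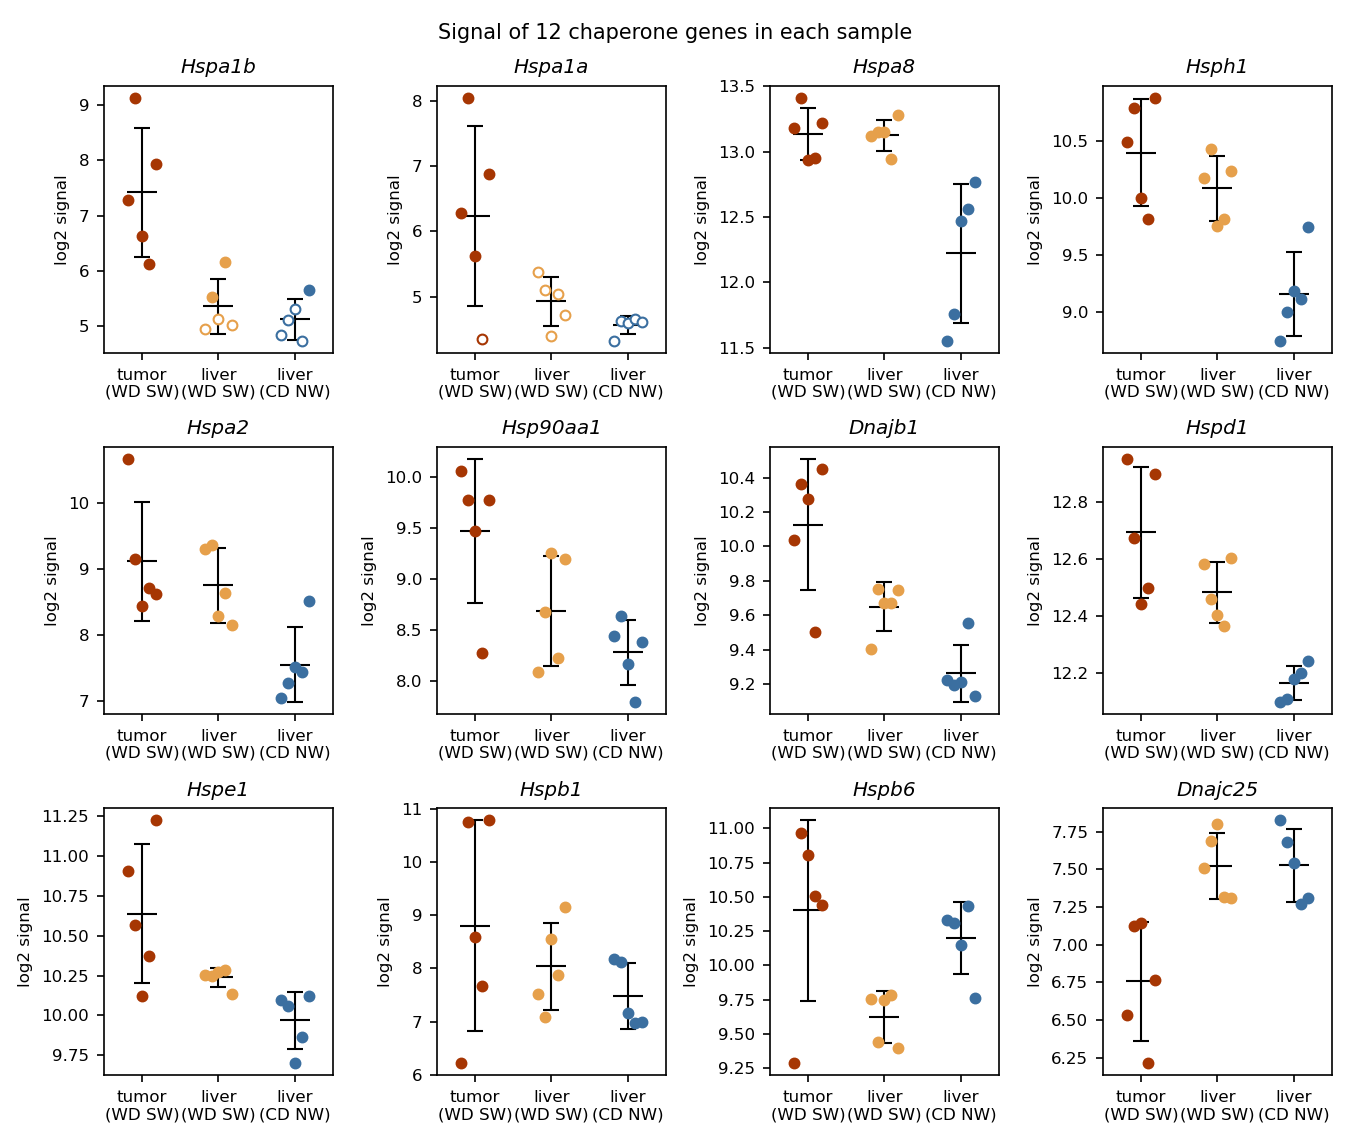
Log2 signal of 12 chaperone genes in each of the 15 samples, with tumors, WD SW livers and CD NW livers from left to right. Points are samples, open where the probe was not above background, and bars are the mean and SD of 5 samples. Hspa8 and Hsph1 were raised in both WD SW groups, Hspa1b in tumors, and Dnajc25 lay lower in tumors than in either group of livers.

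Hsp90aa1, the inducible cytosolic HSP90, was at 10.07, 9.78, 9.48, 8.27 and 9.78 in tumors. It was at 8.09, 8.68, 9.26, 8.23 and 9.20 in WD SW livers and at 8.44, 8.64, 8.17, 7.80 and 8.38 in CD NW livers. Of the tumors, 4 lay above all CD NW livers, and that of 5R lay among them. The log2 fold change in tumors was 1.19 against CD NW liver (standard error 0.30, adjusted p = 0.0130), a call that held in all settings, and 0.78 against WD SW liver (standard error 0.34, adjusted p = 0.241, higher in the tumor in 5 of 5 mice). Both of its probes that passed the filter gave 1.19 against CD NW liver.

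Of 26 co-chaperones and heat shock factors tested, 3 were higher and 0 lower in tumors than in CD NW livers (8 at an unadjusted p under 0.05). That share, 11.5%, was near the 12.3% of all genes called higher. Chordc1, an HSP90-binding protein, had a log2 fold change of 0.65 (adjusted p = 0.00926), Ahsa1, the activator of the HSP90 ATPase, one of 0.79 (adjusted p = 0.0378), and Stip1, which links HSP70 to HSP90, one of 0.60 (adjusted p = 0.0463). Chordc1 also passed in WD SW livers against CD NW livers, at 0.49 (adjusted p = 0.0237). Other co-chaperones of the list were at lower means in tumors and did not pass, among them Fkbp4, which binds HSP90 (-0.47, adjusted p = 0.265), and Stub1, a ubiquitin ligase that binds HSP70 and HSP90 (-0.45, adjusted p = 0.0892). In tumors against WD SW livers none of the 26 passed in limma's fit, and 2 had an unadjusted p under 0.05. The list's median in tumors against CD NW livers was 0.075, against -0.041 over all genes.

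The small heat shock proteins gave 1 call among the 3 genes tested, in WD SW livers against CD NW livers, where 3.71% of all genes were lower. Hspb6, known as HSP20, was lower in WD SW livers than in CD NW livers, with levels of 9.75, 9.44, 9.74, 9.78 and 9.40 in WD SW livers and 10.33, 10.31, 10.15, 10.43 and 9.77 in CD NW livers (log2 fold change -0.57, standard error 0.14, adjusted p = 0.0292). In tumors it was at 9.29, 10.96, 10.80, 10.51 and 10.44, where 4 of 5 samples were above all CD NW livers and that of 4N was below them all. The log2 fold change of tumor against WD SW liver was 0.78 (adjusted p = 0.141). Without the tumor of 4N it was 1.06 (adjusted p = 0.00765), and with array weights 0.97 (adjusted p = 0.0223). The call in WD SW livers ended without the CD NW liver of 1L, 1R, 2L or 2N. Leaving out the WD SW liver of 4R or 6L ended it too (adjusted p up to 0.0735 with 1 array left out). It also ended with median scaling and with 1 fit of all 15 arrays (adjusted p up to 0.170 over all settings).

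Hspb1, the gene of HSP27, varied most among the tumors of the 40 members above background on all arrays. It was at 6.22, 10.75, 8.60, 7.67 and 10.79 in tumors, at 7.52, 7.09, 8.56, 7.88 and 9.16 in WD SW livers and at 8.17, 8.12, 7.16, 6.97 and 6.99 in CD NW livers. The tumors of 4R and 6L were the highest of all 15 samples and the tumor of 4N the lowest. The SD was 1.98 in tumors, and the log2 fold changes of 1.33 against CD NW liver (adjusted p = 0.225) and 0.77 against WD SW liver (adjusted p = 0.666) did not pass. Without the tumor of 4N the value against CD NW liver was 1.97 (adjusted p = 0.0393). Over the 40 members the median SD was 0.33 in tumors, 0.23 in WD SW livers and 0.21 in CD NW livers. Hspb8, which acts with Bag3, had log2 fold changes of 0.42 in tumors and 0.27 in WD SW livers against CD NW livers and passed in neither (adjusted p = 0.0791 and 0.262). Its second probe, dimmer, did pass in tumors against CD NW livers (0.71, adjusted p = 0.0278), as did the mean of its probes (0.57, adjusted p = 0.0381). Without the samples of mouse 5N the brighter probe passed in both, at 0.55 in tumors (adjusted p = 0.0164) and 0.40 in WD SW livers (adjusted p = 0.0370).

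Hspd1 and Hspe1, which encode HSP60 and its lid HSP10 and share the promoter shown above, were both higher in tumors than in CD NW livers. Hspd1 was at 12.95, 12.67, 12.44, 12.50 and 12.90 in tumors, at 12.58, 12.46, 12.40, 12.36 and 12.60 in WD SW livers and at 12.10, 12.11, 12.18, 12.20 and 12.24 in CD NW livers. All 10 samples of WD SW mice lay above all 5 CD NW livers, by a small amount. Its log2 fold change against CD NW liver was 0.53 in tumors (standard error 0.12, adjusted p = 0.00717) and 0.32 in WD SW livers (standard error 0.088, adjusted p = 0.0383). The call in WD SW livers ended without any 1 of 8 arrays, all but the WD SW livers of 5N and 5R, at adjusted p up to 0.0980. It also ended with median scaling, with no filter and with 1 fit of all 15 arrays (adjusted p up to 0.270 over all settings). With the mean of its probes in place of the brightest, neither call held.

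Hspe1 was at 10.91, 10.57, 10.12, 10.37 and 11.23 in tumors, at 10.25, 10.24, 10.27, 10.28 and 10.14 in WD SW livers and at 10.10, 10.06, 9.70, 9.87 and 10.12 in CD NW livers. The tumors of 4N and 6L were the highest for Hspe1 as they were for Hspd1, and the tumor of 5N was level with the highest CD NW liver. Its log2 fold change was 0.67 in tumors (standard error 0.19, adjusted p = 0.0257) and 0.27 in WD SW livers (adjusted p = 0.130) against CD NW livers. The call in tumors ended without the CD NW liver of 2L or 2N or the tumor of 4N (adjusted p up to 0.0676). Other genes of mitochondrial protein quality control gave 1 higher and 1 lower of 12 tested in tumors against CD NW livers. Each was a share of 8.33%, against 12.3% higher and 12.8% lower of all genes. They were Grpel2, an exchange factor of mitochondrial HSP70 (0.75, adjusted p = 0.0227), and Spg7, a subunit of an inner membrane protease (-0.51, adjusted p = 0.0130).

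The chaperonin CCT, which folds actin and tubulin, had 3 subunits higher and 1 lower of 8 tested in tumors against CD NW livers. These shares were 37.5% and 12.5%, against 12.3% and 12.8% of all genes. Of the 5 above background on all 10 arrays, 2 were higher and 0 lower, with a median log2 fold change of 0.36. Cct4 was at 11.73, 11.30, 11.42, 11.20 and 11.40 in tumors and at 10.92, 10.81, 10.92, 10.93 and 11.14 in CD NW livers (log2 fold change 0.47, standard error 0.12, adjusted p = 0.0155). Cct8 was at 11.14, 11.44, 11.29, 11.28 and 11.27 in tumors and at 10.71, 10.80, 10.71, 11.09 and 11.11 in CD NW livers (0.40, standard error 0.12, adjusted p = 0.0310). Both genes were above all CD NW livers in all 5 tumors. Cct7 was above background in 5 tumors and in no CD NW liver, and its tumor mean was at least 1.19-fold higher (adjusted p = 0.0172). It entered the test through the tumors alone and is not read as a change of its own.

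The lower subunit was Cct6b, a form of the sixth subunit best known from the testis, at 5.57, 5.11, 5.77, 6.09 and 5.51 in tumors and 6.26, 6.11, 6.14, 6.21 and 6.30 in CD NW livers (-0.59, standard error 0.18, adjusted p = 0.0336). Its ubiquitous counterpart Cct6a had a log2 fold change of 0.36 (adjusted p = 0.0772), and its second probe passed on its own at 0.46 (adjusted p = 0.0485). With median scaling 1 CCT subunit was higher and 0 lower. That subunit was Cct7, which entered through the tumors alone, while the calls of Cct4, Cct8 and Cct6b ended. The call of Cct4 held without any 1 array. The call of Cct8 ended without the CD NW liver of 1L, 1R or 2L or the tumor of 4R or 5N (adjusted p up to 0.0845), and that of Cct6b without any 1 of 8 arrays, all but the tumors of 5N and 5R (adjusted p up to 0.0713). In the other comparisons no subunit passed in limma's fit, and 2 had an unadjusted p under 0.05 in each.

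Proteins that work with CCT moved in the same comparison. Of 7 partners tested, 4 were higher in tumors than in CD NW livers (57.1%, against 12.3% of all genes). They included the prefoldin subunits Vbp1 (0.997, adjusted p = 0.00445), Pfdn5 (0.48, adjusted p = 0.00382) and Pfdn4 (0.47, adjusted p = 0.0363), which hand unfolded actin and tubulin to CCT. The other was Pdcl (0.79, adjusted p = 0.00820), a phosducin-like protein that acts with CCT on G proteins. Pfdn5 also passed in tumors against WD SW livers (0.45, adjusted p = 0.0406). The list also holds Tcp1, itself a subunit of the CCT ring, which the symbol rule does not take in and which did not pass. With Tcp1 included, the 9 genes of the list with a probe summed to 4991 to 6033 in tumors. The sums were 4175 to 4757 in WD SW livers and 3905 to 4857 in CD NW livers, so that the tumors did not overlap either group of livers. In each of the other partner lists the sums of tumors overlapped those of both groups of livers. A sum follows its brightest genes, here Pfdn5, Tcp1 and Pfdn2, of which only Pfdn5 passed.

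J proteins select clients for HSP70 and start its cycle. Of 27 tested in tumor against CD NW liver, 4 were higher (14.8%) and 3 lower (11.1%), near the 12.3% and 12.8% of all genes, with a median log2 fold change of -0.016. Dnajb1, the main heat-inducible J protein, was at 10.04, 10.36, 10.28, 9.501 and 10.45 in tumors, at 9.41, 9.75, 9.67, 9.67 and 9.75 in WD SW livers and at 9.22, 9.20, 9.21, 9.55 and 9.13 in CD NW livers. The tumor of 5R lay below 4 of the WD SW livers and just below the highest CD NW liver, that of 2N, and the other 4 tumors lay above all livers. The log2 fold change in tumors was 0.86 against CD NW liver (standard error 0.18, adjusted p = 0.00435), a call that held in all settings, and 0.48 against WD SW liver (adjusted p = 0.174). In WD SW livers it was 0.39 against CD NW liver (standard error 0.12, adjusted p = 0.0562). Without the tumor of 5R the value against WD SW liver was 0.63 (adjusted p = 0.0382).

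The other J proteins that were higher in tumors were Dnajb4, a J protein of the cytosol (0.71, adjusted p = 0.0440), Dnajc10, a disulfide reductase of the endoplasmic reticulum (0.53, adjusted p = 0.0335), and Dnaja3, a J protein of mitochondria (0.53, adjusted p = 0.0443), whose second probe gave -0.15 and did not pass (adjusted p = 0.572). Hspbap1, which binds a small heat shock protein, was higher by 0.72 on the log2 scale (adjusted p = 0.0175), a call that held in all settings. Each of the calls of Dnajb4, Dnajc10 and Dnaja3 ended without the CD NW liver of 1L and without the tumors of 4N, 4R or 6L, among others (6, 7 and 6 of the 10 arrays), with adjusted p of up to 0.1002, 0.0800 and 0.109. That of Dnaja3 also ended with median scaling, with no filter and with the mean of its probes. The 3 that were lower were Dnajc25, Dnajc28 and Dnajc16, with log2 fold changes of -0.77 (adjusted p = 0.0166), -0.59 (adjusted p = 0.0384) and -0.55 (adjusted p = 0.0494). The other probes of Dnajc16 gave -0.043 (adjusted p = 0.896) and -0.39 (adjusted p = 0.155), and the mean of its probes did not pass (-0.33, adjusted p = 0.178). Those of Dnajc28 and Dnajc16 each ended without any 1 of 7 arrays, among them the CD NW livers of 1R, 2L and 2N and the tumors of 4N and 4R (adjusted p up to 0.126).

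Dnajc25 was at 6.54, 7.12, 7.15, 6.22 and 6.76 in tumors, at 7.51, 7.69, 7.80, 7.32 and 7.31 in WD SW livers and at 7.83, 7.68, 7.54, 7.27 and 7.31 in CD NW livers. No tumor overlapped any liver, and the 2 groups of livers were level. Against WD SW liver it gave -0.77 on the log2 scale at a standard error of 0.21 (adjusted p = 0.0613, lower in the tumor in 5 of 5 mice), and with the mouse as a block the adjusted p was 0.0180. Of the J proteins Dnajb2 also passed in that paired fit, at 0.50 (adjusted p = 0.0271, against 0.244 without the block), so that the paired fit called 3 members, 2 higher and 1 lower. The call of Dnajc25 against CD NW liver held without any 1 array and ended with median scaling. Of the 26 J proteins tested in WD SW liver against CD NW liver none passed in limma's fit, and 4 had an unadjusted p under 0.05.

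Dnajb6, which carries the 3 units shown above, had log2 fold changes of 0.061 in tumors and 0.071 in WD SW livers against CD NW livers, at standard errors of 0.20 and 0.21, by its brightest probe. Its other probes gave 0.56 (adjusted p = 0.0231) and 0.53 (adjusted p = 0.0491) in tumors, and 0.53 (adjusted p = 0.0178) and 0.57 (adjusted p = 0.0613) in WD SW livers, so that the probes disagreed and whether Dnajb6 differed is not settled. Dnaja1, a J protein of the cytosol, was near background, above it in 2 tumors, 2 WD SW livers and 3 CD NW livers. Dnajc15 and Dnajc19, which belong to the import machinery of mitochondria, had log2 fold changes of -0.35 (adjusted p = 0.137) and -0.24 (adjusted p = 0.390) in tumors against WD SW livers. For Dnajc15 no tumor overlapped a WD SW liver, as was also so for Cct8 and Dnajc25. The share of all genes without such an overlap was not counted.

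**Figure D4:**
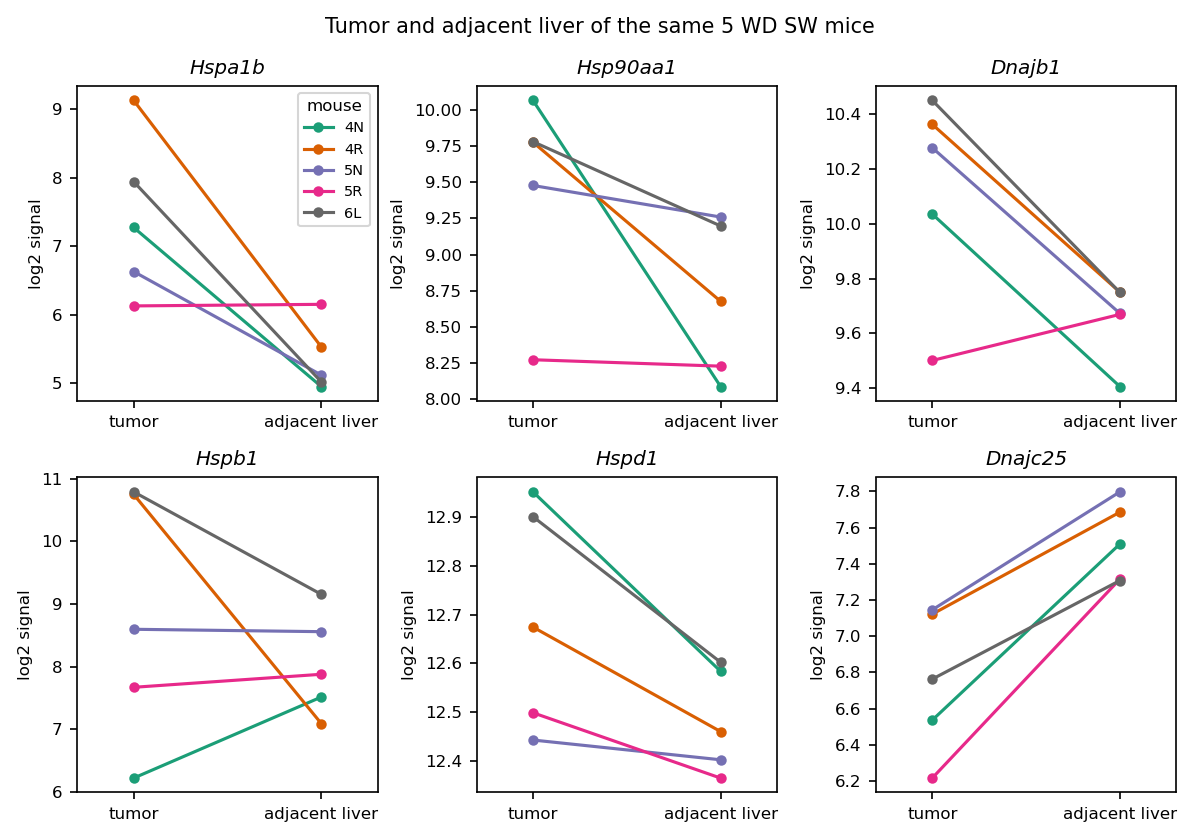
Log2 signal of 6 chaperone genes in the tumor (left) and the adjacent liver (right) of each of the 5 WD SW mice, with 1 line per mouse. Hsp90aa1 and Hspd1 were higher and Dnajc25 lower in the tumor of all 5 mice. For Hspa1b the line of mouse 5R is level, and for Dnajb1 it runs the other way from the remaining 4.

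The tumors ranked differently from gene to gene, but the same ones recurred at the ends. Of the 16 members higher in tumors than in CD NW livers, the highest tumor was that of 4N in 6, 4R in 6 and 6L in 4, and the lowest was that of 5R in 7 and 5N in 6. Among CD NW livers that of 3N was highest in 10 and that of 1L lowest in 8. These ranks were not counted over all genes called higher, so whether they are particular to the chaperones is not known. Means of the 3 groups stood in the order tumor, WD SW liver, CD NW liver for all 16. That tumors stood above CD NW livers was fixed by the choice of these genes, and only the place of the WD SW livers was free. The share with this order over all genes called higher was not counted. For Hspa8 the tumor mean was only 0.011 above that of WD SW livers. In 7 of the 16, Cct4, Cct7, Cct8, Hspa1b, Hspa8, Hspd1 and Hsph1, no tumor overlapped a CD NW liver, and without Cct7 in 6 of 15 (40.0%). Of all genes called higher, which were 12.3% of those tested, 68.2% had no overlap, and of those above background in a CD NW liver 65.5%.

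The stress lists next to these chaperones were tested in the same fits. Of 14 genes of the endoplasmic reticulum's chaperones and unfolded protein response, 2 were higher and 0 lower in tumors than in CD NW livers (3 at an unadjusted p under 0.05), a share of 14.3% that was near the 12.3% of all genes called higher. They were Ddit3, the transcription factor CHOP (2.33, adjusted p = 0.000162), and Dnajb9, a J protein of that compartment (0.94, adjusted p = 0.0116). Ddit3 passed in tumors against WD SW livers too (1.90, adjusted p = 0.0147). Hspa5 and Hsp90b1, the main chaperones of that compartment, had log2 fold changes of 0.68 (adjusted p = 0.140) and -0.18 (adjusted p = 0.496) in tumors against CD NW livers. Immediate-early genes respond within minutes to many signals including tissue handling. Of 11 tested, 4 were higher (36.4%, against 12.3% of all genes) and 0 lower in tumors than in CD NW livers (5 at an unadjusted p under 0.05). Log2 fold changes were 2.41 for Atf3 (adjusted p = 0.00995) and 1.67 for Klf6 (adjusted p = 0.00184). In WD SW livers against CD NW livers 3 of the 11 were higher (27.3%, against 6.07% of all genes). In tumors against WD SW livers Atf3 alone passed (1.23, adjusted p = 0.0280), a share of 9.09%, against 1.96% of all genes higher. Of the clock and temperature-sensitive genes, 12 were tested in tumors against CD NW livers, and none passed in limma's fit (2 at an unadjusted p under 0.05). The time and handling of sampling were not given in the sources used here, and their part in the chaperone levels was not tested.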

How the data were processed

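The values come from the signal intensities of 45281 probes on 15 Illumina mouse whole-genome arrays, which the authors deposited on a linear scale before normalization. The authors also deposited processed intensities, used here as an alternative only. The sources used here do not say how they were made. No detection p-values, control probes or BeadChip names were used, as the tables hold none.

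Background correction and quantile normalization over all 15 arrays used limma 3.58.1 (neqc method, offset 16) in R 4.3.3, with 1526 probes of olfactory, vomeronasal and trace amine receptor genes standing in for negative controls. Log2 values were then taken. Genes were named through the array's probe table and a RefSeq gene table, and 34885 probes had 1 symbol, 18 several and 10378 none. A gene was read from its brightest probe among those above background (detection p under 0.01) on 5 or more of a comparison's 10 arrays. Each comparison was fitted on its own 10 arrays with lmFit and eBayes with a trend, and p-values were adjusted over all genes tested. A fold against a group below background is a lower bound, set against the dimmest signal called above background on each array or the probe's own signal.

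Sample titles give the mouse, so tumor and liver pairs are of the same animal. Deviations of tumor and liver from their group means correlated over genes at r between 0.189, in mouse 4N, and 0.521, in mouse 6L, against at most 0.127 with the liver of another mouse. The fit has no block for the mouse, and the blocked fit is an alternative.

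The members and the lists of partner and marker genes were chosen with earlier results of these data known. The genes given with full values are those that passed in a comparison and a set of well-known members, and those of partner lists are the ones that passed or had the smallest adjusted p. Dnajb6, Dnajc15, Dnajc19, Dnajb2, Cct6a, Fkbp4 and Stub1 were named for completeness after their values were seen. Alternatives covered the background correction, scaling, source of the values, filter, choice of probe, samples in the fit, array weights, the block and each array left out. The fit was tested on simulated arrays. Each group has 5 arrays, a number that limits precision.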

Additional observations from a re-analysis of the deposited data

Results flagged for a closer look

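Single samples stood apart from the other 4 of their group, by Dixon's test, in 7 of 84 groups of values examined for 28 chaperone genes. Chance alone flags about 1 group in 20. Among WD SW livers, Dnajb1 was lowest in 4N at a log2 level of 9.41, Hspe1 was lowest in 6L at 10.14 and Cct6b was lowest in 6L at 5.003, where it was not above background. Among CD NW livers, Dnajb1 was highest in 2N at 9.55 and Hspb8 was highest in 3N at 12.82. The CD NW liver of 2L had the lowest Dnaja1, at 4.90, and that of 1L the lowest Hspa1a, at 4.32, both not above background. No tumor was flagged for any of the 28 genes.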

How the results depend on the processing

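The number of members called was 1 in tumor against WD SW liver, 5 in WD SW liver against CD NW liver and 20 in tumor against CD NW liver. In tumor against WD SW liver it was 0 with no background correction, with a correction at an offset of 50, with the authors' processed values, with no filter and with probes above background on all 10 arrays, 2 with 1 fit of all 15 arrays and with array weights, and 3 with the replicate block, which pairs tumor and liver of a mouse and called 906 of all genes, against 347. Leaving out 1 array gave 0 to 2. Without the WD SW liver of mouse 5R, 467 genes were called and 1 member, and without both arrays of that mouse 1 member. In WD SW liver against CD NW liver the count was 3 with the mean of a gene's probes, 2 with 1 fit of all 15 arrays and 8 with array weights. It was 1 to 6 with 1 array left out, and lowest without the CD NW liver of 1R (1) and without those of 1L or 2L or the WD SW liver of 4R (2 each), with 3 without the CD NW liver of 2N. In tumor against CD NW liver it was 12 with no filter, under which 74 members and 17793 genes were tested, and 12 to 21 with 1 array left out. With probes above background on all 10 arrays, 14 of 41 members were higher and 3 lower. The cause of these shifts was not tested, other than that fits of fewer arrays or more genes test fewer or more values.

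Of 26 calls of a gene in a comparison, none changed sign in 492 refits, 379 of these kept the call and 113 lost it. The 8 that kept it throughout were Hsph1 in WD SW livers and Dnajb1, Hsp90aa1, Hspa1b, Hspa2, Hspa8, Hspbap1 and Hsph1 in tumors, each against CD NW livers. The block changed no other call than those of Dnajc25 and Dnajb2. Levels near background, as of Hspa1a, Cct7, Cct6b and Dnaja1, are the least certain.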
